A study of Drosophila melanogaster with 2 samples.

Results

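The Jonah genes Jon99Ci, Jon99Cii, Jon99Ciii, Jon99Fi, Jon99Fii, Jon44E and Jon74E were read across the cells of Drosophila intestines. These 7 genes were taken by symbol from the gene list deposited with the counts and make up 7 of its 17737 features. The study asked how blocking the immune deficiency (IMD) pathway in intestinal progenitors affects the gut epithelium. Single cells were profiled from 1 library of esgts/D30A guts (w; esgGal4, tubGAL80[ts], UASGFP/+; UAS-ImdD30A/+) and 1 library of esgts/+ guts (w; esgGal4, tubGAL80[ts], UASGFP/+; +/+). Flies of both genotypes thus carried the esg driver, which is active in progenitors, the temperature-sensitive repressor GAL80 and GFP, and differed in the dominant inhibitory ImdD30A transgene. Each library pooled 27 guts of virgin females that were reared at 18 °C, kept at 29 °C for 10 days, and dissociated with elastase at 1 mg/ml. The transgene was driven in progenitors, so the enterocytes described here are not the cells in which the driver is active.

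Jonah genes encode secreted serine proteases of the chymotrypsin type that enterocytes release into the gut lumen, where they cut dietary protein. They form a large family that grew by local duplication, so that neighbouring copies are alike in sequence while different members are used in different stretches of the midgut. Enterocytes themselves arise from intestinal stem cells and take on region-specific sets of digestive enzymes.

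On the BDGP6.54 assembly, to which all 7 genes were matched by FlyBase identifier, 5 members lie in 2 small groups on chromosome arm 3R. Jon99Ciii (FBgn0003357, 29922216 to 29923455, forward strand), Jon99Cii (FBgn0003356, 29923754 to 29924615, reverse strand) and Jon99Ci (FBgn0003358, 29925226 to 29926189, reverse strand) follow each other, with 298 and 610 bases between them and no other coding gene there. Jon99Fii (FBgn0039777, 30487016 to 30487928, reverse strand) and Jon99Fi (FBgn0039778, 30488963 to 30489895, forward strand) lie head to head, 1034 bases apart. Jon74E (FBgn0023197) stands alone on 3L, from 17548077 to 17549127 on the reverse strand, 698 bases from CG7542. Jon44E (FBgn0001285) is on 2R, from 8691448 to 8692844 on the forward strand, where its end overlaps the end of CG8586 by 49 bases. Sequence identity between copies was not analysed here. Reads from alike copies can be split between them or dropped in counting, so the single values of Jon99Cii, Jon99Ciii, Jon99Fi and Jon99Fii are uncertain. They are also given as sums, which do not restore dropped reads.

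A count here is a unique molecular identifier (UMI), the tag of 1 captured transcript, and levels are given as UMIs per cell or as CPM (counts scaled to a common total of UMIs in the same cells). The method counts transcript ends, so values were not divided by gene length. After barcodes with few genes, with a high mitochondrial share or with the highest doublet scores were removed, 4083 cells of esgts/D30A (49454149 UMIs) and 3959 cells of esgts/+ (29881834 UMIs) remained. The mitochondrial share was above the limit in 31.9% of the barcodes of esgts/D30A and 3.39% of those of esgts/+. The transcript of imd, the gene behind the transgene, was at 16.8 CPM in esgts/D30A and 11.6 CPM in esgts/+. The cells fell into 25 clusters, formed without the Jonah genes, of which 10 were named enterocyte-like from their markers. These held 1610 cells of esgts/D30A (median 2285.5 UMIs) and 1709 cells of esgts/+ (median 1520 UMIs). Of the 26 enterocyte markers none was at 0 in either library, and their summed level was 31875 CPM in esgts/D30A and 53976 CPM in esgts/+. Of 5 haemocyte markers, Hml, NimC1 and He were at 0 in both libraries, and the list summed to 0.566 CPM in esgts/D30A and 0.335 in esgts/+. No marker was at 0 among 7 of visceral muscle, which summed to 11.8 and 9.27 CPM. The same held for 4 of neurons, at 65.0 and 59.0 CPM. With 1 library per genotype no difference between genotypes could be tested, and every interval given is a 95% interval for counting error only.

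The libraries had 125 kept barcodes in common. In 120 of these pairs one copy was at least 20-fold deeper than the other, with a median ratio of 165, and 81 pairs fell in the same cluster. The deeper copy was in esgts/D30A for 91 pairs and in esgts/+ for 34. Both copies together carried 22.9% of the 7 genes' UMIs in esgts/D30A and 14.1% in esgts/+. Levels, shares of cells, pairs of genes, balances and genotype ratios in enterocyte-like clusters and cluster 20 were also computed without these barcodes, and such values are given where they differed by over 1.5 times, turned a direction or changed a call. Correlations, depths, values of other cell types and counts of cells with one set of genes alone were computed only with them.

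The 7 genes were enterocyte genes in both libraries. Enterocyte-like cells held 90.6% of their UMIs in esgts/D30A and 89.2% in esgts/+, or 89.5% and 87.6% without the shared barcodes. Jon99Cii, of the Jon99C group, was by far the most counted, with 249162 UMIs in enterocyte-like cells of esgts/D30A (155 per cell) and 217583 in those of esgts/+ (127 per cell). Jon74E followed in esgts/D30A with 45948 UMIs (28.5 per cell), and in esgts/+ it had 30456 (17.8 per cell), close to the 30819 (18.0 per cell) of Jon99Ciii. Jon44E had the fewest, with 2771 UMIs (1.72 per cell) in esgts/D30A and 1712 (1.00 per cell) in esgts/+.

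Low counts of every member were also found in cell types that are not known to make these proteases. Progenitor-like cells averaged 10.6 UMIs of Jon99Cii per cell in esgts/D30A and 12.0 in esgts/+, although their depth differed (median 17529 and 9942.5 UMIs). Over the 15 clusters that were not enterocyte-like, the mean of Jon99Cii ran from 7 to 55.9 UMIs per cell in esgts/D30A and from 9.56 to 14.04 in esgts/+, over a range of depths from 832 to 34238 and from 660 to 19824.5. The upper end in esgts/D30A came from cluster 20, described further on. Of these 15 clusters, 8 carried no class name, with 1632 cells of esgts/D30A and 1391 of esgts/+. The largest of them, cluster 0 (1427 cells), had 7 enterocyte markers, so enterocytes among the unnamed cells were not excluded. A like absolute number of UMIs in each barcode, whatever its depth, was taken as the level of RNA free in the droplets, and the share of cells with a UMI reads it too. At least 1 UMI of Jon99Cii was found in 96.8% of enterocyte-like and 99.3% of progenitor-like cells in esgts/D30A, and in 97.1% and 97.2% in esgts/+. Jon74E was found in 76.5% of enterocyte-like and 75.0% of progenitor-like cells in esgts/D30A, and in 70.2% and 62.3% in esgts/+. These shares therefore say nothing about which cells express the genes.

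**Figure D1:**
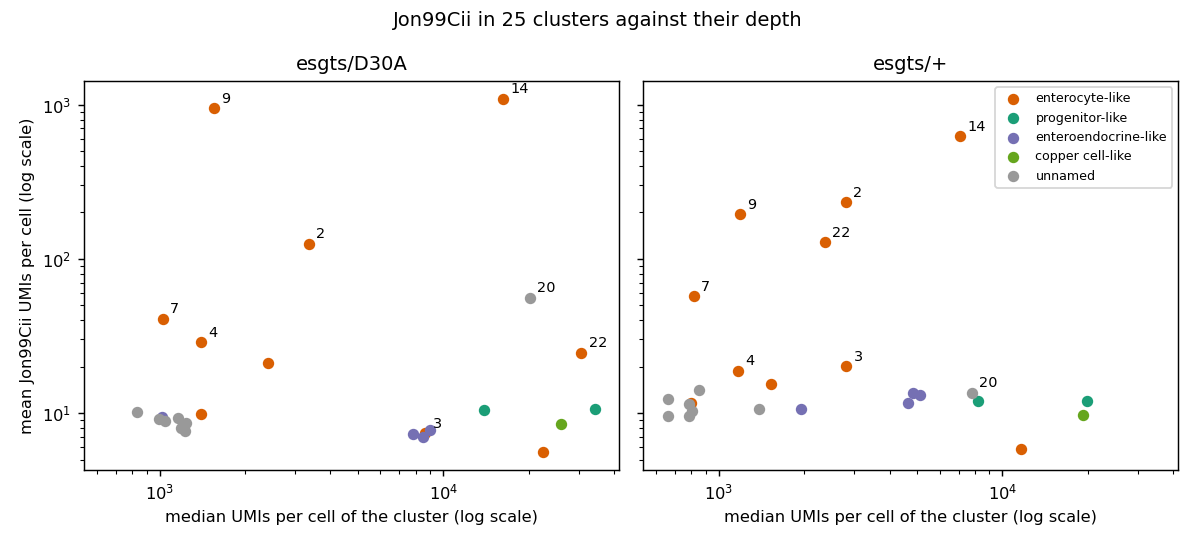
Mean Jon99Cii UMIs per cell (vertical, log scale) against the median UMIs per cell (horizontal, log scale) of each of the 25 clusters, coloured by class, in esgts/D30A (left) and esgts/+ (right). Most clusters that were not enterocyte-like lay on a flat band near 10 UMIs per cell at every depth, while clusters 14, 9, 2 and 7 stood above it in both libraries.

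A cell was therefore counted as expressing a member only when its UMIs exceeded the 99th percentile of progenitor-like cells of the same library, a limit chosen after the data had been seen. The limit was 34 UMIs of Jon99Cii in esgts/D30A and 39.2 in esgts/+, 7 and 5.23 UMIs of Jon74E, and 1 UMI of Jon44E in both. Enteroendocrine-like and copper cell-like cells, which took no part in setting it, passed it for a given member in at most 2.03% of cells in esgts/D30A and 1.78% in esgts/+. The share of these cells that passed for at least 1 of the 7 genes can be higher and is not given here. By this measure 635 enterocyte-like cells of esgts/D30A (39.4%, 37.0% to 41.9%) and 733 of esgts/+ (42.9%, 40.5% to 45.3%) expressed at least 1 of the 7 genes. These cells were deeper than the others, with a median of 3512 against 1820 UMIs in esgts/D30A and 2009 against 1183.5 in esgts/+, so shallow cells with fewer transcripts can be missed.

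Most expression was split over 4 enterocyte-like clusters. Cluster 2, whose leading genes were CG7542 and LysC (a lysozyme), expressed Jon74E with the Jon99C genes. Cluster 14, led by Ser8 (a serine protease) and CG31041, expressed the Jon99F pair and Jon44E with the Jon99C genes. Cluster 7, led by the Jonah genes Jon66Ci and Jon99Fi, had the set of cluster 14 in shallower cells. Cluster 9, led by CG42700 and CG17739, expressed Jon99Cii and Jon99Ciii, and 28 of its 49 cells in esgts/D30A and 49 of its 240 cells in esgts/+ also passed the limit for Jon99Fi, Jon99Fii or Jon44E. At least 1 member passed the limit in 76.2%, 86.5%, 76.2% and 75.5% of the cells of clusters 2, 14, 7 and 9 in esgts/D30A, and in 75.8%, 70.0%, 44% and 88.3% in esgts/+. In cluster 4, led by CG17571 and CG31636, 51 of 271 cells of esgts/D30A and 23 of 201 of esgts/+ passed, 43 and 16 of them for Jon99Fi, Jon99Fii or Jon44E. In cluster 22, led by CG42807 and Zip42C.2, Jon99Cii averaged 24.6 UMIs per cell in esgts/D30A and 128 in esgts/+, where 5 of 33 cells passed for it or Jon99Ciii. In each library 1 cell, a shared barcode, held most of this, with 63.3% in esgts/D30A and 55.4% in esgts/+, and without the shared barcodes the means were 8.88 and 16.4 UMIs. In cluster 15, led by CG6337 and CG30047, only 2 of 129 cells of esgts/D30A and 1 of 87 of esgts/+ passed for any member, although its cells were deep (median 22368 and 11643 UMIs). Enterocyte-like clusters thus ran from cells loaded with these proteases to cells at the level of the free RNA.

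**Figure D2:**
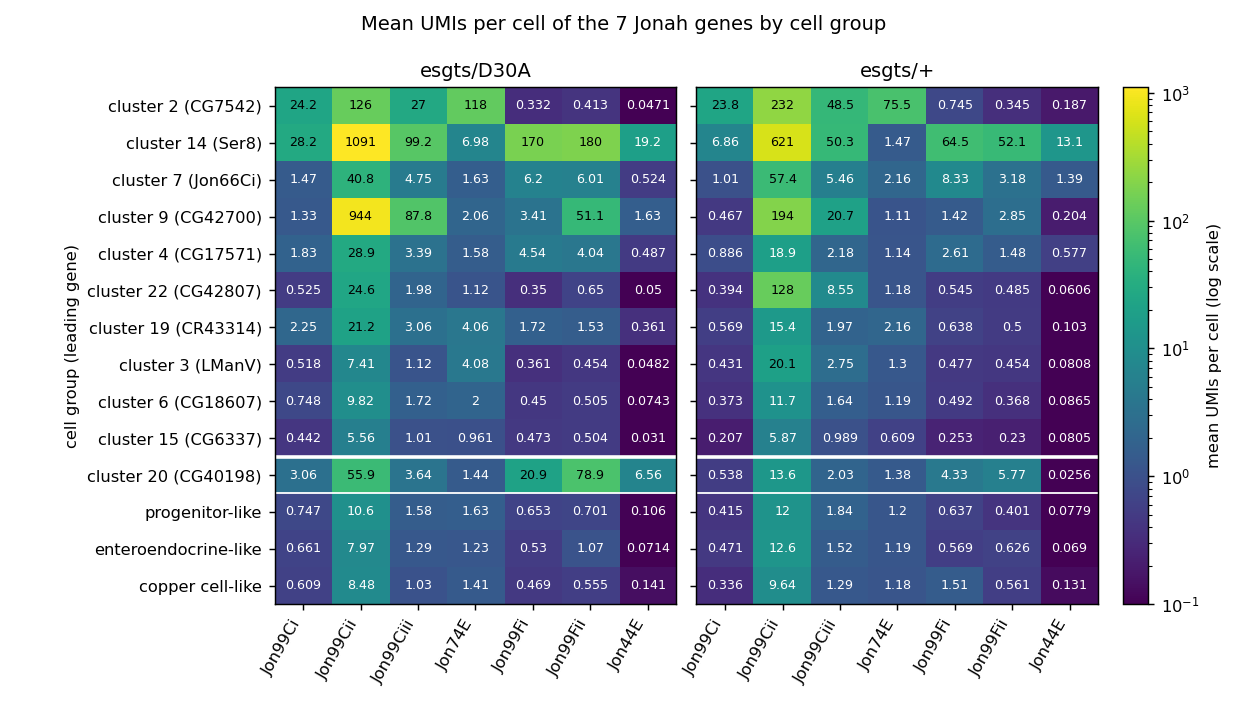
Mean UMIs per cell (numbers and colour, log scale) of the 7 Jonah genes (columns) in the 10 enterocyte-like clusters, the unnamed cluster 20, and the progenitor-like, enteroendocrine-like and copper cell-like classes (rows, with the leading gene), in esgts/D30A (left) and esgts/+ (right). Jon74E was highest in cluster 2, Jon99Fi, Jon99Fii and Jon44E peaked in cluster 14, and Jon99Cii and Jon99Ciii were high in clusters 2, 14, 9 and 7.

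Jon74E had most of its UMIs in 1 cluster in both libraries. Cluster 2 held 86.1% of its UMIs in esgts/D30A and 86.5% in esgts/+, at 118 and 75.5 UMIs per cell (78.6 and 60.4 without the shared barcodes), and 65.1% and 71.3% of the cluster's cells passed the limit. In cluster 14 it averaged 6.98 UMIs per cell in esgts/D30A and 1.47 in esgts/+, and 1 cell carried 47.3% of the cluster's Jon74E UMIs in esgts/D30A. CG7542, the next coding gene to Jon74E on 3L, was the leading gene of the same cluster. Outside cluster 2, fewer cells passed the limit for Jon74E, and they were spread over several clusters. In cluster 3, led by the alpha-mannosidase genes LManV and LManII, 8.84% of esgts/D30A cells and 2.31% of esgts/+ cells passed. In cluster 19, led by CR43314 and amn, 5 of 36 cells of esgts/D30A and 6 of 58 of esgts/+ passed. In cluster 14 these were 11 of 126 and 5 of 90 cells, and in cluster 7 they were 1 of 147 and 14 of 175.

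Jon99Ci, the copy at the end of its group, shared cluster 2 with Jon74E, and in esgts/D30A it was also found in cluster 14. Cluster 2 held 57.7% of its UMIs in esgts/D30A (24.2 per cell) and 80.4% in esgts/+ (23.8 per cell). Cluster 14 held most of the rest in esgts/D30A, 23.5% at 28.2 UMIs per cell, against 5.49% at 6.86 UMIs per cell in esgts/+. In esgts/D30A, Jon99Ci passed the limit in 69.0% of cluster 14 cells, the highest share of any enterocyte-like cluster, and in 48.5% of cluster 2 cells. In esgts/+ the highest share was that of cluster 2, 46.1%. In cluster 9, by contrast, where Jon99Cii was at 67413 CPM in esgts/D30A and 80845 CPM in esgts/+, Jon99Ci was at 94.8 and 194 CPM.

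Jon99Cii and Jon99Ciii, neighbours that are transcribed towards each other, were found in the same cells. Cluster 14 had the highest means, 1091 UMIs of Jon99Cii and 99.2 of Jon99Ciii per cell in esgts/D30A, and 621 and 50.3 in esgts/+. The median cell of this cluster had 412 UMIs of Jon99Cii in esgts/D30A and 94 in esgts/+. In cluster 9 the mean of Jon99Cii was 944 UMIs per cell over 49 cells in esgts/D30A and 194 over 240 cells in esgts/+, but the median cell had 61 and 85.5 UMIs. A single cell carried 16.9% of that cluster's Jon99Cii in esgts/D30A and 24.3% in esgts/+, so the means of cluster 9 rested on few cells. Both of these cells were shared barcodes, without which the means were 544 and 149 UMIs. Over all kept cells, Jon99Cii and Jon99Ciii together were carried in largest part by cluster 14 in esgts/D30A and by cluster 2 in esgts/+, with 50.2% and 36.1% of Jon99Cii.

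Jon99Fi, Jon99Fii and Jon44E had most of their UMIs in cluster 14. It held 81.3% of Jon99Fi in esgts/D30A and 56.2% in esgts/+, 70.4% and 60.2% of Jon99Fii, and 74.6% and 61.7% of Jon44E. The means per cell were 170 and 64.5 UMIs of Jon99Fi, 180 and 52.1 of Jon99Fii, and 19.2 and 13.1 of Jon44E. Within the cluster, expression was uneven. Jon99Fi passed the limit in 42.9% of its esgts/D30A cells and 36.7% of its esgts/+ cells, its median was 1 UMI in both, and its highest cell had 3098 and 967 UMIs. As few as 8 cells of esgts/D30A and 12 of esgts/+ held 50% of a library's Jon99Fi, 16 and 15 cells did for Jon99Fii, and 10 and 13 for Jon44E. For Jon99Cii these numbers were 28 and 45 cells. In cluster 7, where cells had a median of 1024 UMIs in esgts/D30A and 816 in esgts/+, the same genes were spread more evenly. Jon99Fi passed the limit in 49.0% of its esgts/D30A cells and 35.4% of its esgts/+ cells, with means of 6.20 and 8.33 UMIs. In cluster 9 the pair summed averaged 54.5 UMIs per cell in esgts/D30A and 4.27 in esgts/+. A single shared barcode held 37.4% of it in esgts/D30A, where the mean without the shared barcodes was 37.0 UMIs.

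Cluster 20, led by CG40198 and CG3301, carried no class name and had the highest means of Jon99Fi and Jon99Fii outside the enterocyte-like clusters in both libraries. Jon99Fii averaged 78.9 UMIs per cell over its 36 cells in esgts/D30A and 5.77 over its 39 cells in esgts/+. In esgts/D30A, 1 cell held 54.3% of these, and the limit was passed in 11.1% of the cells of esgts/D30A and 10.3% of those of esgts/+. Of the 236 UMIs of Jon44E in its esgts/D30A cells, 92.4% lay in 1 cell, against 1 UMI in all its cells of esgts/+. For both genes the highest cell of esgts/D30A was a shared barcode. Without the shared barcodes 19 cells of esgts/D30A and 22 of esgts/+ were left, where Jon99Fii averaged 53.5 and 8.09 UMIs with 1 cell past the limit in each library, and Jon44E averaged 0.895 UMIs in esgts/D30A.

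Jon74E and the Jon99F pair were found together in few enterocyte-like cells. In esgts/D30A, 281 cells passed the limit for Jon74E and 251 for Jon99Fi and Jon99Fii summed, and 6 passed both, or 1.14% of the 526 cells with either (0.42% to 2.47%). Of the cells with the pair, 2.39% thus had Jon74E, beside 17.5% of all enterocyte-like cells of this library. In esgts/+, 307 and 170 cells passed, and 18 passed both, or 3.92% of 459 (2.34% to 6.13%). Here 10.6% of the cells with the pair had Jon74E, beside 18.0% of all enterocyte-like cells. With a cell counted as high at 1% of its own UMIs, 1 of 216 cells of esgts/D30A (0.463%, 0.01% to 2.55%) and 0 of 162 of esgts/+ were high in both. The exact interval for the latter reached 2.25%, and a count of 0 read as allowing 3 gave 1.85%. By this rule Jon74E was high in only 4.41% of all enterocyte-like cells of esgts/D30A and 3.80% of those of esgts/+. The pair was high in 9.07% and 5.68%. The most extreme cells showed the split in esgts/D30A. The cell with the most Jon74E in esgts/D30A had 3781 UMIs of it, 153 of Jon99Cii and 2 each of Jon99Fi and Jon99Fii, while the cell with the most Jon99Fi had 3098 UMIs of it, 8386 of Jon99Cii and 6 of Jon74E. In esgts/+, the highest cell for Jon99Fi had 967 UMIs of it and 4 of Jon74E, but the highest for Jon74E, with 1900 UMIs of it, also had 55 of Jon99Fi. Both cells with the most Jon74E were shared barcodes, and without these barcodes the highest had 1291 UMIs in esgts/D30A and 1309 in esgts/+.

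The exceptions differed between libraries. Of the 6 cells of esgts/D30A with both, 5 were in cluster 14 and had 14218 to 73686 UMIs in all, and the other, in cluster 9, had 7561. Of the 18 cells of esgts/+, 14 were in cluster 7, where 70 cells passed for Jon99Fi, Jon99Fii or Jon44E, and had only 1889 to 5927 UMIs in all, yet 124 to 490 UMIs of Jon99Cii, 16 to 98 of Jon99Fi and 8 to 18 of Jon74E. Under a stricter cell filter (500 genes or more and 10% mitochondrial UMIs or less), 2 of 273 cells with either remained in both in esgts/+, against 6 of 307 in esgts/D30A. Without the shared barcodes the share in esgts/+ was 3.88%.

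**Figure D3:**
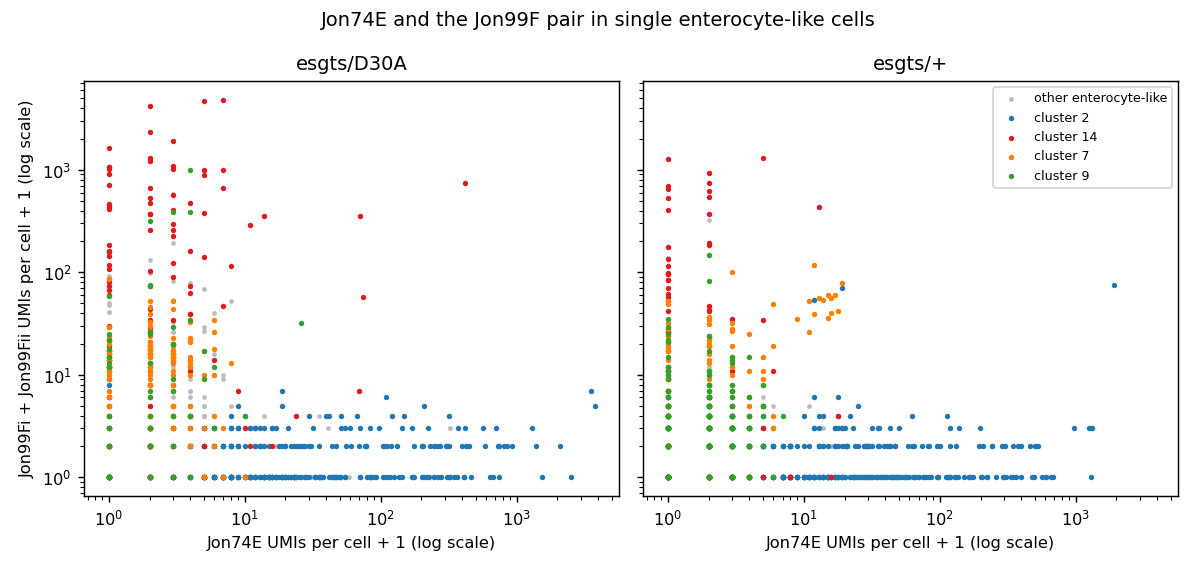
UMIs per cell of Jon74E (horizontal) and of Jon99Fi plus Jon99Fii (vertical), both plus 1 on log scales, in each enterocyte-like cell of esgts/D30A (left, 1610 cells) and esgts/+ (right, 1709 cells), coloured by cluster. Cells of cluster 2 lay along the horizontal axis and cells of clusters 14 and 7 along the vertical one, and the group of 14 cluster 7 cells with both lay in the middle of the esgts/+ panel.

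Other pairs overlapped. Of the cells that passed the limit for Jon99Cii or Jon99Ciii, 72.4% passed both in esgts/D30A (315 of 435) and 75.3% in esgts/+ (448 of 595). For Jon99Fi and Jon99Fii, the share was 54.1% in esgts/D30A (145 of 268) and 49.5% in esgts/+ (93 of 188). In all enterocyte-like cells of esgts/D30A, Jon99Cii passed in 25.2%, Jon99Ciii in 21.4%, Jon99Fi in 11.1% and Jon99Fii in 14.6%. The same shares in esgts/+ were 33.9%, 27.1%, 7.20% and 9.25%. Of the cells with Jon44E, 86 of 98 in esgts/D30A and 84 of 96 in esgts/+ also had the Jon99F pair. Of all enterocyte-like cells, 15.6% and 9.95% had this pair. Jon44E was found with Jon74E in 4 of these 98 cells of esgts/D30A (4.08%), below the 17.5% of all enterocyte-like cells, but in 21 of the 96 of esgts/+ (21.9%), beside 18.0%. The 14 cells of cluster 7 in esgts/+ with Jon74E and the Jon99F pair had 2 to 12 UMIs of Jon44E. They were thus among these 21 cells and are not a separate observation. All 7 genes passed in 0 cells of esgts/D30A and 12 of esgts/+, of which 9 were in cluster 7 and 3 in cluster 2. The Jon99C copies were found both with Jon74E and with the Jon99F pair. Jon99Cii and Jon99Ciii summed were found in 187 of the 251 cells with the Jon99F pair and in 165 of the 281 cells with Jon74E in esgts/D30A, and in 145 of 170 and 206 of 307 in esgts/+. This sum passed the limit in 26.0% of all enterocyte-like cells in esgts/D30A and 34.2% in esgts/+. Cells with the Jon99C genes alone numbered 86 in esgts/D30A and 249 in esgts/+, and cluster 9 held 8 cells of esgts/D30A and 162 of esgts/+ with Jon99Cii or Jon99Ciii alone.

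Within cluster 2, Jon74E and Jon99Cii differed in how many cells passed the limit. Both passed in 142 cells of esgts/D30A (39.3%) and 180 of esgts/+ (47.4%), and these were deep, with medians of 14083.5 and 6627 UMIs. Jon74E passed without Jon99Cii in 93 and 91 cells, with medians of 2128 and 1783 UMIs, and Jon99Cii without Jon74E in 19 and 8. The limit for Jon99Cii is higher, so the cells with Jon74E alone cannot be told apart from shallow cells with both.

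Across enterocyte-like cells, log-scaled levels of Jon99Cii and Jon99Ciii had a Pearson correlation of 0.81 in esgts/D30A (1610 cells) and 0.79 in esgts/+ (1709 cells). Jon99Fi with Jon99Fii had 0.66 and 0.48, and Jon99Fi with Jon44E 0.46 and 0.44. Jon74E had 0.33 and 0.36 with Jon99Ci, 0.37 and 0.31 with Jon99Cii, and 0.36 and 0.33 with Jon99Ciii. With Jon99Fi, Jon99Fii and Jon44E it had between −0.11 and −0.00 in both libraries. The cells of a library share its free RNA and differ in depth, and these coefficients are descriptions of 2 libraries.

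The ratio of Jon99Ciii to Jon99Cii separated cluster 2 from clusters 14, 9 and 7. In cells with at least 100 UMIs of Jon99Cii, cluster 2 had a median of 0.216 UMIs of Jon99Ciii per UMI of Jon99Cii in 93 cells of esgts/D30A, with a 10th to 90th percentile range of 0.172 to 0.246. In 122 cells of esgts/+ the median was 0.216 as well, with a range of 0.174 to 0.248. In cluster 14 the medians were 0.0949 in 86 cells of esgts/D30A and 0.0852 in 45 cells of esgts/+. Clusters 9 and 7 were at 0.0920 (19 cells) and 0.0957 (7 cells) in esgts/D30A, and at 0.103 (94 cells) and 0.0875 (25 cells) in esgts/+. The 90th percentile of cluster 14, 0.136 in esgts/D30A and 0.115 in esgts/+, lay below the 10th percentile of cluster 2 in both libraries. Of the other enterocyte-like clusters, cluster 4 had a median of 0.0908 in 14 cells of esgts/D30A and 0.0798 in 3 of esgts/+, cluster 3 had 0.194 in 1 cell and 0.118 in 9, and cluster 22 had 1 and 2 such cells. Clusters 6, 15 and 19 had no cell with as many UMIs, so their ratio was not read cell by cell. Jon99Ci followed another order. Its median per UMI of Jon99Cii in the same cells was 0.147 in cluster 2, 0.0292 in cluster 14 and 0.000934 in cluster 9 of esgts/D30A, and 0.0840, 0.0138 and 0 in esgts/+.

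**Figure D4:**
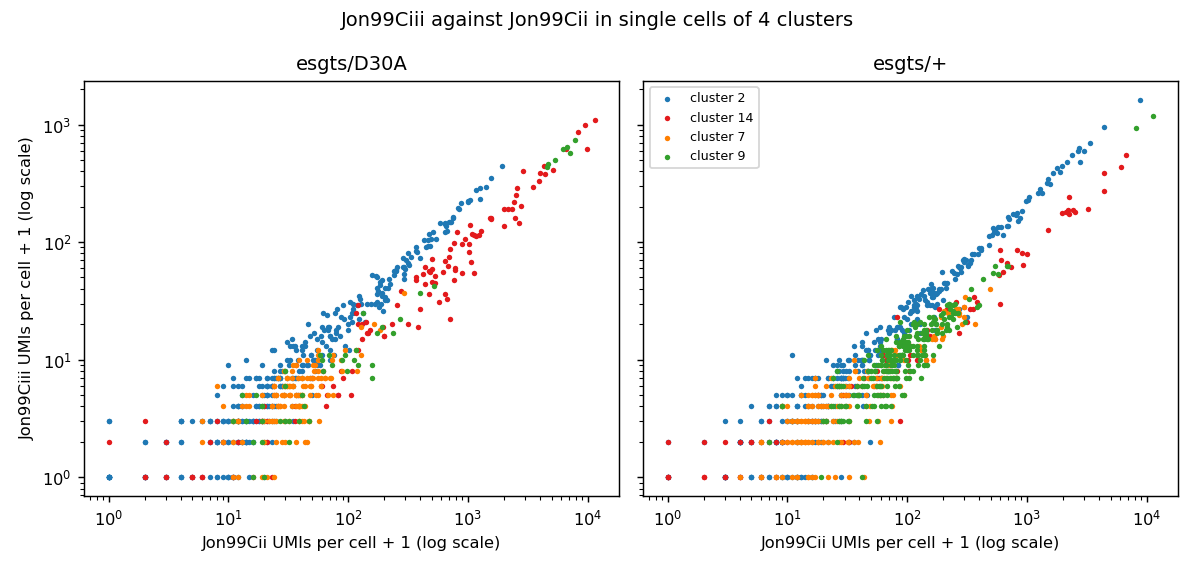
UMIs per cell of Jon99Cii (horizontal) and Jon99Ciii (vertical), both plus 1 on log scales, in the cells of clusters 2, 14, 7 and 9 of esgts/D30A (left) and esgts/+ (right). Cells of cluster 2 formed a band above that of clusters 14, 7 and 9, with a median ratio of 0.216 in both libraries.

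The balance within the Jon99F pair differed between the libraries. Summed over enterocyte-like cells there were 1.14 UMIs of Jon99Fii per UMI of Jon99Fi in esgts/D30A (1.12 to 1.16) and 0.759 in esgts/+ (0.735 to 0.784). In cells with at least 20 UMIs of the pair, Jon99Fii made up a median of 67.6% in 133 cells of esgts/D30A and 35.0% in 85 cells of esgts/+. It made up at least 90% in 46 cells of esgts/D30A (34.6%) and 9 of esgts/+ (10.6%). The same order was seen in cluster 14, with medians of 79.7% over 74 cells and 51.5% over 37 cells, and in cluster 7, with 43.5% over 21 cells and 22.03% over 33 cells. Cluster 9 leaned to Jon99Fii in both, with 92.5% in 14 cells of esgts/D30A and 87.9% in 8 cells of esgts/+. The free RNA differed likewise, with 1.07 UMIs of Jon99Fii per UMI of Jon99Fi in progenitor-like cells of esgts/D30A and 0.630 in those of esgts/+. The median over the 15 other clusters, unnamed ones included, was 1.18 in esgts/D30A and 0.667 in esgts/+. Single cells of the pair thus ran from nearly all Jon99Fi to nearly all Jon99Fii, between 8.70% and 100% Jon99Fii in esgts/D30A and between 2.86% and 100% in esgts/+.

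Between genotypes, the members of enterocyte-like cells went in different directions. Jon99Fii was at 1223 CPM in esgts/D30A and 418 CPM in esgts/+, a log2 ratio of 1.55 (1.51 to 1.59), and Jon99Fi was at 1072 and 550 CPM, a log2 ratio of 0.96 (0.93 to 1.00). The pair summed had a log2 ratio of 1.25. Jon99Ciii was at 1290 CPM in esgts/D30A and 1948 CPM in esgts/+, with a log2 ratio of −0.59 (−0.62 to −0.57), and Jon99Cii was at 11036 and 13754 CPM, with −0.32 (−0.33 to −0.31). Jon99Cii and Jon99Ciii summed had −0.35. The other members were closer to equal, with Jon99Ci at 598 and 655 CPM (−0.13), Jon44E at 123 and 108 CPM (0.18) and Jon74E at 2035 and 1925 CPM (0.08).

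The median log2 ratio of all 7652 genes with at least 20 UMIs in these cells was 0.46. Relative to this median, Jon99Fii was higher by 2-fold or more (1.09), a size that 7.93% of all genes reached, and Jon99Ciii was lower by 2-fold or more (−1.05), which 2.35% of all genes reached. The other 5 members were within 2-fold, with Jon99Fi at 0.50, Jon44E at −0.28, Jon74E at −0.38, Jon99Ci at −0.59 and Jon99Cii at −0.78. Without the shared barcodes, Jon99Fii was at 0.79 and no longer past 2-fold, and Jon99Ciii was at −1.15. Without only the shallower copy of each pair, Jon99Fii was at 1.10. With the stricter cell filter Jon99Fii was at 1.35 and Jon99Ciii at −0.98, and after merging without integration Jon99Fii was at 1.26. Over all kept cells, with no use of clusters, Jon99Fii was at 1.05, beside 8.82% of genes higher by 2-fold or more, and Jon99Ciii at −1.09, beside 2.68% lower. Over the alternatives read relative to the median gene, Jon99Fii thus lay between 0.79 and 1.35, and Jon99Ciii between −1.15 and −0.98. Other scales, given below, went beyond these ranges.

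**Figure D5:**
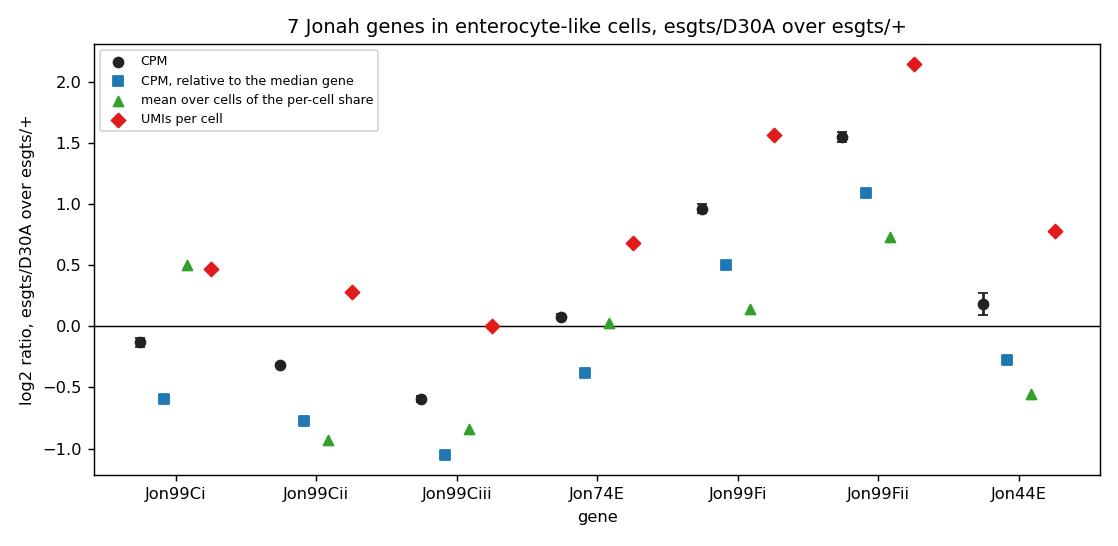
Log2 ratio of esgts/D30A over esgts/+ in enterocyte-like cells (vertical) for each of the 7 genes (horizontal) on 4 scales, namely CPM with its 95% counting interval, CPM relative to the median gene, the mean over cells of the per-cell share, and UMIs per cell. Jon99Fi and Jon99Fii were above 0 on each of these scales, and the other 5 genes changed sign between them, with Jon99Ciii reaching only 0.00 as UMIs per cell.

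The direction of 5 members depended on the scale. Cells of esgts/D30A were deeper, and as UMIs per cell all 7 were at or above their esgts/+ level, with log2 ratios of 2.15 for Jon99Fii, 1.56 for Jon99Fi, 0.78 for Jon44E, 0.68 for Jon74E, 0.47 for Jon99Ci, 0.28 for Jon99Cii and 0.00 for Jon99Ciii. With every cell weighted equally, the order was Jon99Fii (0.73), Jon99Ci (0.50), Jon99Fi (0.14), Jon74E (0.03), Jon44E (−0.55), Jon99Ciii (−0.84) and Jon99Cii (−0.93). Jon99Fii was the highest of the 7 on all of these scales.

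Inside the clusters the ratios were not uniform. In cluster 2 the log2 ratio of CPM was 0.64 (0.62 to 0.66) for Jon74E and 0.02 for Jon99Ci, but −0.89 (−0.91 to −0.87) for Jon99Cii and −0.85 for Jon99Ciii, beside a median of 0.61 over all genes there. In cluster 14 it was 1.27 for Jon99Ci, 1.01 for Jon99Fii, 0.62 for Jon99Fi, 0.04 for Jon99Cii and −0.23 for Jon44E, beside a median of 0.18. In cluster 7 Jon99Fii stood at 0.81 while Jon99Fi was at −0.53, Jon99Cii at −0.60 and Jon44E at −1.52, beside a median of 0.01. In cluster 9 Jon99Fii was at 1.62 and at 1.32 without the highest cell of each library, since 1 cell held 39.6% of its UMIs there in esgts/D30A. Jon99Fii was thus above the median gene in clusters 14, 7 and 9, and Jon99Cii was below it in clusters 2, 14, 7 and 9. Without the shared barcodes, Jon74E in cluster 2 was at 0.29 beside a median of 0.58, Jon99Cii in cluster 14 was at −0.09 beside 0.25, and Jon99Cii in cluster 9 was at −0.07 beside −0.06. In cluster 3 Jon99Cii differed between the libraries, with 0.40% of cells past the limit at a mean of 7.41 UMIs per cell in esgts/D30A, which was below the mean of progenitor-like cells, against 15.8% of cells at 20.1 UMIs per cell in esgts/+. The clusters also differed in size, with 49 cells of cluster 9 in esgts/D30A and 240 in esgts/+, and 126 and 90 cells of cluster 14, and the part of this in the summed ratios was measured only by leaving out cluster 9, which gave −0.10 in place of −0.16 for the log2 ratio of all 7 genes summed.

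The rest of the family moved over a wider range. Of 9 other Jonah genes in enterocyte-like cells, 2 were higher and 4 lower by 2-fold or more relative to the median gene, from 2.29 for Jon66Ci to −1.90 for Jon25Bii in log2 ratio of CPM. Of the 10 Greek-letter trypsins with enough UMIs, digestive proteases of the trypsin type, none was higher and 4 were lower by that measure, from 0.59 for lambdaTry to −0.96 for epsilonTry. The median log2 ratio was 0.08 for the 7 members, 1.04 for the other Jonah genes and 0.02 for the trypsins, beside 0.46 for all genes.

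The genes whose levels across clusters were most like those of the members divided along the same lines. Levels of 5346 genes were compared over 45 points, each of them 1 cluster in 1 library with at least 30 cells there. The closest to Jon74E on the log2(CPM + 1) scale were Diedel3 (Pearson 0.97), Jon25Bi (0.95) and LysB (0.95). Those closest to Jon99Ci were CG43055 (0.94), Diedel3 (0.93) and Jon25Bii (0.91). The closest to Jon99Cii and to Jon99Ciii were the same, the amylase genes Amy-d (0.96 for both) and Amy-p (0.96 for both) and the peptidoglycan amidase gene PGRP-SC2 (0.95 and 0.94). Jon99Fi, Jon99Fii and Jon44E shared PGRP-SC1b (0.96, 0.94 and 0.93), PGRP-SC1a (0.95, 0.93 and 0.91) and Jon25Biii (0.96, 0.92 and 0.88). On the scale of UMIs per cell, these 3 remained the closest to each of Jon99Fi, Jon99Fii and Jon44E, and Diedel3 remained the closest to Jon74E (0.96). For Jon99Cii the closest became CG42397 (0.94), CG9394 (0.94) and CG18180 (0.93). Among the members, the least alike were Jon74E and Jon99Fii, at 0.44 on the first scale and 0.07 on the second.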

How the data were processed

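For each of the 2 libraries the authors deposited unnormalized UMI counts from Cell Ranger (3.0 in the submitters' processing notes, which also list Seurat 3.1.1, and 3.0.2 in the file headers). The genome build behind the counts is not given in the sources used here. Positions come from BDGP6.54 (Ensembl release 115), in which 17599 of 17737 features were found. The libraries held 53275921 UMIs in 6322 barcodes (esgts/D30A) and 30383272 UMIs in 4242 barcodes (esgts/+).

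The members, the lists and the cell filters were chosen with earlier results of these data known. Kept barcodes had 200 genes or more and 25% mitochondrial UMIs or less, and those with the highest Scrublet scores (scanpy 1.11.5) were removed at 0.8% per 1000 barcodes (218 of esgts/D30A and 139 of esgts/+). Seurat 5.3.0 under R 4.3.3 (with Matrix 1.6.5) integrated both libraries on 2000 variable genes, all 16 Jonah genes left out, and clustered them in 30 dimensions at a resolution of 0.8. A cluster was named when at least 3 markers of a class were found in at least 10% of its cells at 1.5-fold or more over other cells, unless markers of another class outnumbered them among its 10 leading genes. Counts were summed per cell group and divided by the total, with exact Poisson intervals for levels and ratios and exact Clopper-Pearson intervals for shares (95%). A count of 0 was read as allowing 3. No test between genotypes was run, since each had 1 library. Ratio intervals were tested on simulated Poisson counts, the model they assume, so the unevenness between cells seen here was not part of that test. The genes named are the 7 members, the 2 leading genes of each cluster, the highest and lowest of each list, and the 3 genes with the highest Pearson correlation to each member over clusters of at least 30 cells, among genes with at least 500 UMIs. Scripts used pandas 2.3.3, scipy 1.17.1, numpy 2.4.6 and matplotlib 3.10.9 in Python 3.11.15.

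Alternatives were resolutions of 0.4 and 1.2, other cell filters, no doublet removal, merging, all variable genes, other scalings, thinning to 800 UMIs, and other limits for a high cell. Chosen after seeing the data were the limit from progenitor-like cells, UMIs per cell, ratios within single cells, and leaving out cluster 9, the shared barcodes or the highest cell of a cluster.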

Additional observations from a re-analysis of the deposited data

How the results depend on the processing

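The log2 ratio of the 7 genes summed in enterocyte-like cells, −0.16, was −0.11 at resolution 0.4, −0.028 with the stricter cell filter, −0.17 each with no cell filter, with no doublet removal and with all variable genes, −0.14 after merging, −0.62 relative to the median gene, −0.68 as a mean over cells, −0.39 over all kept cells, −0.11 with the background subtracted, −0.10 without cluster 9, −0.34 without the shared barcodes, and 0.44 as UMIs per cell, where its sign turned. As UMIs per cell the sign also turned for Jon99Ci (0.47), Jon99Cii (0.28), Jon99Ciii (0.0047), Jon99Cii with Jon99Ciii (0.25) and the 3 Jon99C genes (0.26). Jon99Ci was at 0.50 as a mean over cells. Jon44E was at −0.28 relative to the median gene, −0.55 as a mean over cells and −0.12 without the shared barcodes, and Jon74E at −0.38, at −0.15 over all kept cells and at −0.19 without the shared barcodes. The cause was not tested. Of the 7 genes, 0 rather than 1 were higher by 2-fold or more without the shared barcodes, and 0 rather than 1 were lower with the stricter filter. The share of the members' UMIs in enterocyte-like cells, 90.6% in esgts/D30A and 89.2% in esgts/+, was 92.4% and 89.4% at resolution 0.4, 91.3% and 90.5% at 1.2, 90.2% and 87.5% after merging, 92.4% and 91.0% with the stricter filter, and 89.5% and 87.6% without the shared barcodes. The share of cells high in both Jon74E and the Jon99F pair at 1% of UMIs was 0% in esgts/D30A at 2% and after thinning to 800 UMIs. In esgts/+ it was 3.92% over the limit from progenitor-like cells, 3.88% without the shared barcodes and 3.99% without their shallower copies. No paired analysis was possible because each genotype had 1 library. Without replicates, spread between guts or preparations was not measured, and between 8.90% and 24.4% of a member's UMIs were at the level of the free RNA.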

Other observations

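The barcodes removed for their mitochondrial share, 2019 of esgts/D30A and 144 of esgts/+, had a mean of 7.55 and 8.46 UMIs of Jon99Cii, below the 10.6 and 12.0 UMIs of progenitor-like cells. Of these barcodes, 13 of esgts/D30A and 0 of esgts/+ passed the limit for Jon99Cii, and 22 of esgts/D30A and 0 of esgts/+ that for Jon99Fi. The barcodes removed in large number from esgts/D30A thus carried little of these genes beyond the free RNA.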
